A study of Mus musculus with 16 samples.

Results

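A mouse inner medullary collecting duct cell line was compared with and without doxycycline (DOX) at passage 7. The members are the 8 libraries whose count columns carry the passage 7 names, 4 with DOX and 4 without, of 16 libraries in all. The other 8 are the same design at passage 4. The line was newly made from a Pkd2 knockout mouse in which DOX induces the loss of Pkd2, and the sample titles call the cells of every library Pkd2 knockout cells. By genotype label, the 4 libraries without DOX are wild type and the 4 with it are Pkd2 knockout. All cells were kept on permeable filters for 10 days, and the DOX libraries received 2 ug/mL for 6 days. No library holds cells without the inducible allele that were given DOX, so the effect of DOX itself and that of losing Pkd2 cannot be told apart. The promoter and cell type that drive the induction, and whether the 4 replicates came from different cultures, are not given in the labels. The p-values therefore measure only the spread between these libraries, which may be technical.

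Polycystin-2, the product of Pkd2, is a channel for cations in cilia and in the membrane of the endoplasmic reticulum. Loss of it or of its partner polycystin-1 turns kidney tubules, the collecting duct among them, into fluid-filled cysts. The question named for the series is which transcripts respond early to that loss. DOX, the inducer here, is a tetracycline antibiotic, a class that blocks bacterial ribosomes and acts on those of mitochondria too.

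Total counts at passage 7 ranged from 9937504 to 16191097 per library, and 14836 of 55536 listed genes passed the filter on low counts and were tested. Replicates 1 and 2 of each group stood apart from replicates 3 and 4, a split that no label names. In the fit that holds DOX constant, 29.3% of tested genes differed between these sets of replicates, so the set is a term in every fit below. The column headers of the authors' TPM table match the count columns of the same name for 4 of 16 libraries, while all 16 columns match by position. The count headers were used. That Pkd2 follows the DOX labels under them was known at that choice, so Pkd2 is no separate check of the labels. The defining marker of collecting duct principal cells, the water channel gene Aqp2, had a count of 0 in all 8 libraries, and the channel genes Aqp3, Scnn1b and Scnn1g had at most 18 counts in any library. The epithelial sodium channel subunit gene Scnn1a had at least 1645 counts, the nephric transcription factor gene Pax2 at least 793 and the ureteric bud gene Hoxb7 at least 506. Genes of the ureteric lineage and of epithelia were thus present, and the water channel that defines principal cells was not detected at this depth.

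Pkd2 (chromosome 5, 104459450 to 104505819, GRCm38, 1-based) was the first gene checked. Its level was 186, 184, 184 and 185 CPM (counts scaled to the effective size of each library) in the 4 libraries without DOX and 47.4, 52.8, 60.1 and 65.8 CPM in the 4 with it. The groups lay far apart, and within the DOX group replicates 3 and 4 kept more Pkd2 RNA than replicates 1 and 2. The log2 fold change was -1.71 (SE 0.059), which left 30.6% of the level without DOX, with an adjusted p of 1.5e-14 (edgeR's quasi-likelihood test, Benjamini-Hochberg over all tested genes). An exact 2-sided permutation test of the CPM values gave p = 0.0286, the smallest that 70 arrangements allow (0.10 after adjustment over 7 measures tested this way). The labels do not give the part of the gene that is deleted, so the counts may hold reads from parts that remain. Pkd1, which encodes polycystin-1, was at 41.3 ± 4.10 CPM without DOX and 42.9 ± 3.30 with it (SD, n = 4), a value of 0.058 (SE 0.058, adjusted p = 0.47) that did not pass the test.

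**Figure D1:**
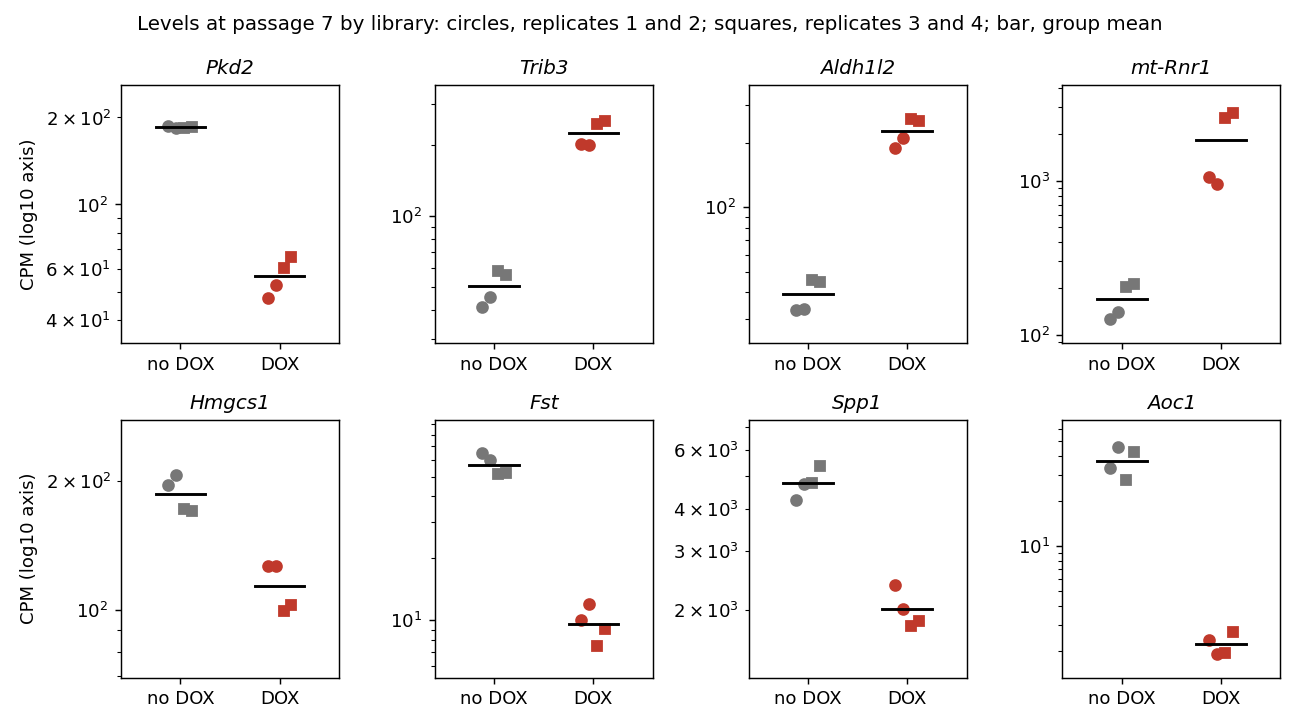
Level of 8 genes in each passage 7 library, in CPM on a log10 axis, with circles for replicates 1 and 2, squares for replicates 3 and 4 and a bar at each group mean. In every panel the 4 libraries with DOX lie wholly above or wholly below the 4 without, as for Pkd2, which fell to 30.6% of its level without DOX.

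Across the transcriptome, 2664 genes rose with DOX (18% of the tested genes) and 2814 fell (19%). Counts given below for gene lists are to be set beside these shares, together 36.9% of tested genes. Here and below a gene is said to have risen or fallen only where its adjusted p in this test was under 0.05, and values in parentheses after a gene are log2 fold changes, DOX minus no DOX. Most changes were small: 204 genes (1.38%) rose and 263 (1.77%) fell at least 2-fold, together 3.15%, and the median over all tested genes was -0.0050. For 3779 genes (25.5%) the 4 libraries with DOX did not overlap the 4 without. Without the set term 1575 genes rose and 1666 fell, and in replicates 1 and 2 alone 1435 rose and 1476 fell.

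**Figure D2:**
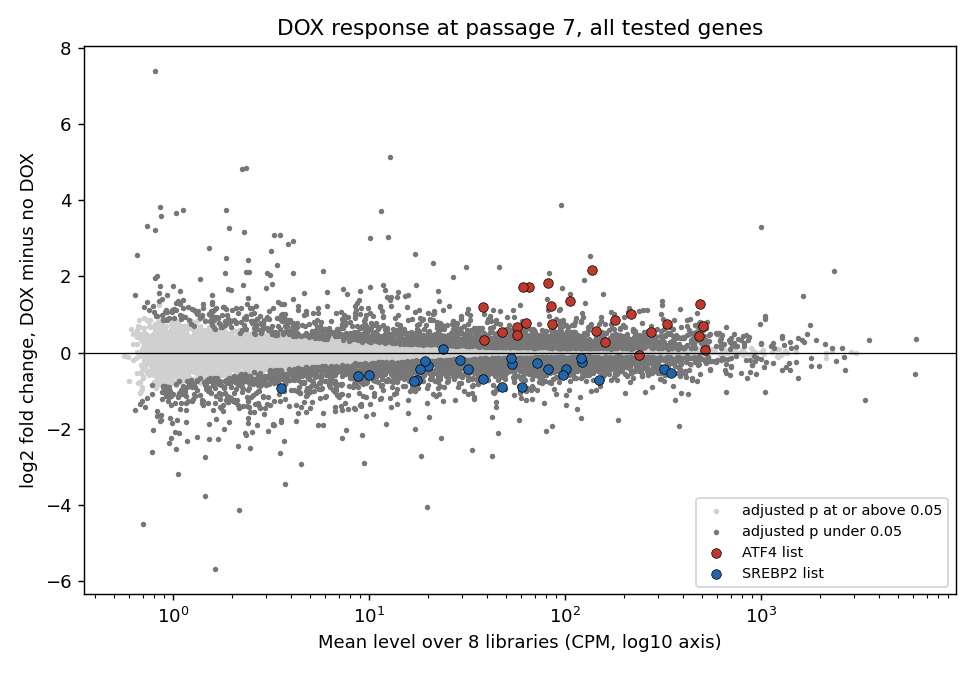
Log2 fold change with DOX at passage 7 against mean level in CPM (log10 axis) for all 14836 tested genes, with genes past an adjusted p of 0.05 in dark grey and tested members of the ATF4 and SREBP2 lists in colour. Of the 24 ATF4 members, 22 rose and 0 fell, and of the 25 SREBP2 members, 0 rose and 24 fell.

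The largest rises among genes of at least 5 CPM whose groups did not overlap were led by Cdsn, the gene of corneodesmosin, an adhesion protein of cornified epithelium (chromosome 17, 35552128 to 35557180). Cdsn was at 13.4, 11.1, 12.5 and 10.8 CPM without DOX and at 156, 164, 192 and 205 CPM with it, a log2 fold change of 3.88 (SE 0.071, edgeR adjusted p = 2.0e-20). The 4 libraries with DOX lay far above the 4 without. Dmrta1 (3.73), which encodes a DM-domain transcription factor, and the 12S ribosomal RNA gene mt-Rnr1 (3.30) followed. Further down came Pkhd1l1 (3.10), a relative of the fibrocystin gene, the collagen gene Col26a1 (3.09), the glycosyltransferase gene B4galnt2 (3.04) and the teneurin gene Tenm4 (3.02). The dystrophin-related gene Drp2 (2.85), the tetraspanin gene Cd53 (2.68), Angptl6 (2.58), the one-carbon enzyme gene Aldh1l2 (2.54) and the cationic amino acid transporter gene Slc7a3 (2.37) made up the rest. Exons of B4galnt2, Angptl6 and Aldh1l2 partly overlap a gene on the other strand, and the sources used here do not say whether the counting was by strand. Of genes named below, Chchd10 (9.84% of exon bases), Fst (2.51%) and Shmt2 (1.03%), among others, overlap such a gene too.

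The largest fall was in Aoc1, the gene of diamine oxidase, which breaks down histamine and putrescine (chromosome 6, 48872896 to 48909188). Its level was 33.1, 45.8, 27.6 and 42.3 CPM without DOX and 2.37, 1.90, 1.93 and 2.66 CPM with it (-4.05, SE 0.21, edgeR adjusted p = 4.2e-08). The groups did not come near each other. Cyp26b1, whose enzyme degrades retinoic acid, fell by 3.46 on the log2 scale, the neutrophil chemokine gene Cxcl5 by 2.94, the membrane protease gene Tmprss6 by 2.89 and the methyltransferase gene Inmt by 2.73. Also among the 12 were the chloride channel regulator gene Clca3b (-2.72), the gamma-glutamyltransferase family genes Ggt7 (-2.65) and Ggt1 (-2.34), the complement protease gene Masp1 (-2.25), the septin gene Sept4 (-2.25) and Npr3 (-2.18), the clearance receptor of natriuretic peptides. Fst, which encodes the activin inhibitor follistatin (chromosome 13, 114452290 to 114458951), was at 65.2, 60.3, 51.4 and 51.9 CPM without DOX and 10.0, 11.9, 7.52 and 9.07 CPM with it. Its change of -2.57 (SE 0.076) had the smallest adjusted p of any gene that fell (1.2e-17, edgeR).

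Ranked by the change in CPM instead of in fold, abundant transcripts came to the front. Both mitochondrial ribosomal RNA genes and the mitochondrial genes mt-Nd2 and mt-Nd4, all described further on, the translation elongation factor genes Eef1a1 (0.36) and Eef2 (0.34), the iron-siderophore-binding lipocalin gene Lcn2 (0.72) and the mitochondrial chaperone gene Hspa9 (0.96) gained most. Osteopontin, Spp1, lost most: 4248, 4759, 4778 and 5367 CPM without DOX against 2381, 2012, 1803 and 1859.6 CPM with it (-1.25, SE 0.11, edgeR adjusted p = 5.1e-05). The libraries with DOX lay wholly below the others. The amyloid precursor gene App (-0.46), the urokinase gene Plau (-1.04), the protein kinase A scaffold gene Akap12 (-0.67), the keratin gene Krt8 (-0.35), the glycoprotein gene Cd24a (-0.47), the cornified envelope gene Sprr1a (-1.05) and the mitochondrial gene mt-Co1 fell as well. Genes with the smallest adjusted p-values that are not named elsewhere were, among those that rose, the secreted protease gene Htra1 (1.92), Chchd10 (1.69), whose protein lies between the mitochondrial membranes, and the glycogen-binding protein gene Stbd1 (2.10), and among those that fell Sytl2 (-1.39), which acts in vesicle transport.

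Known targets of the transcription factor ATF4 were mostly higher with DOX. ATF4 is translated when the integrated stress response slows protein synthesis, as under amino acid shortage or mitochondrial stress, and its targets include stress factors, amino acid enzymes and transporters. Of 24 tested members of the stress response list, 22 rose and 0 fell, where 36.9% of all tested genes changed either way (list median 0.75, median of all tested genes -0.0050). Trib3, a pseudokinase gene of this response (chromosome 2, 152337422 to 152344032), stood at 41.2, 45.4, 58.6 and 55.9 CPM without DOX and at 203, 200.4, 247 and 254 CPM with it. The groups did not overlap, and the log2 fold change was 2.17 (SE 0.046, edgeR adjusted p = 1.6e-20). Ddit3, the gene of the stress factor CHOP, went from 41.7, 38.8, 30.9 and 33.1 CPM to 126, 126, 129 and 129 CPM (1.82, SE 0.062), again with no overlap. The cystathionine cleavage enzyme gene Cth (1.72), the stress-induced nuclear protein gene Nupr1 (1.29), and the alanine transaminase gene Gpt2 (1.35) rose too, as did Atf4 (0.68) itself. Gdf15 (0.071, adjusted p = 0.21) and Vldlr (-0.073, adjusted p = 0.19) were the members that did not pass. Of 15 upstream kinases and initiation factors, 4 rose and 3 fell (median 0.014, 46.7% called, against 36.9% of all tested genes). The initiation factor genes Eif2s1 (0.20) and Eif2b5 (0.19) rose, and the ER stress kinase gene Eif2ak3 (-0.19) fell. The heme-regulated kinase gene Eif2ak1 (0.014, adjusted p = 0.85) did not pass.

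Enzymes that make serine and feed one-carbon units into mitochondria rose in the next group. Of 24 tested genes of serine, one-carbon and related amino acid metabolism, 14 rose and 4 fell (median 0.24). The share called was 75.0%, against 36.9% of all tested genes. Aldh1l2, the mitochondrial formyltetrahydrofolate dehydrogenase gene (chromosome 10, 83487450 to 83534140), was at 33.2, 33.4, 45.9 and 44.8 CPM without DOX and 189, 211, 259 and 253 CPM with it. No other gene had a smaller adjusted p (edgeR 3.9e-21). Its mitochondrial partners Shmt2 (1.16) and Mthfd2 (1.06) and asparagine synthetase Asns (1.02) rose, and so did the proline synthesis gene Pycr1 (1.22) and the serine synthesis genes Psph (1.12), Psat1 (1.07) and Phgdh (0.66). Against these, the glutamine synthetase gene Glul (-0.49) was among the genes that fell.

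Transfer RNA synthetases, which load amino acids for translation, exist in a cytosolic and a mitochondrial set. Of 20 cytosolic synthetase genes, 15 rose and 0 fell (median 0.47), and in 16 the groups did not overlap (25.5% of all tested genes). Wars, for tryptophan, was at 254, 267, 229 and 217 CPM without DOX and 532, 515, 562 and 523 CPM with it (1.14, SE 0.051). Eprs, for glutamate and proline, rose by 0.85, Sars, for serine, by 0.73 and Rars, for arginine, by 0.69. Values of Hars, Farsa, Dars, Qars and Kars lay between -0.060 and 0.031 and did not pass. Of 17 mitochondrial synthetase genes 4 rose, Iars2 (0.24), Nars2 (0.48), Vars2 (0.18) and Ears2 (0.23), and 0 fell (median 0.14, 23.5% called). The call of Ears2 was lost on leaving out replicate 2, 3 or 4 of either group (adjusted p from 0.056 to 0.10) and over all 16 libraries (0.059). Among 18 tested amino acid transporter genes 8 rose and 3 fell (median 0.10, 61.1% called, against 36.9% of all tested genes). The neutral transporter gene Slc1a5 (1.54), the glycine transporter gene Slc6a9 (1.12) and the large neutral transporter gene Slc7a5 (0.75) rose besides Slc7a3. The taurine transporter gene Slc6a6 (-0.43) was among those that fell.

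The promoters of tested genes were searched for the letters of the composite element that ATF4 and its partners bind. The windows run from 250 bases before to 50 after the start of transcription (RefSeq, GRCm38.p6), and the motif TGATGNAA was sought on both strands. It was present in 3.97% of all 32851 windows and in 277 of 10437 tested genes with a window (2.65%). Members of the stress response list are known ATF4 targets, and the synthetase and serine lists hold some too. Their shares were thus in part fixed by how the lists were made. Of 22 stress response genes 8 held the motif (36.4%), as did 5 of 12 cytosolic synthetase genes (41.7%). So did 2 of 19 serine and one-carbon genes (10.5%) and 12 of 143 genes that rose at least 2-fold (8.39%). Genes that rose at least 2-fold include 9 members of the stress response list. Of all genes with a window that rose, 71 of 2000 held the motif (3.55%), and of those that fell, 59 of 2064 (2.86%). Whether ATF4 acts through these letters here was not tested. The motif was in 7 of 177 genes that fell at least 2-fold (3.95%) and in 0 of 17 mitochondrial chaperone and protease genes. Vldlr, which did not pass the test, is among the 8 stress response genes that hold it. Ddit3, Gpt2, Shmt2, Mthfd2, Wars, Eprs, Sars and Rars, which rose, are not among the genes with a match, some perhaps for want of a window. Aldh1l2 and Cth had no window. Capitals mark the motif or its reverse complement, so that the shared letters can be compared. Stretches of 30 bases around the match are shown for 7 genes that rose and hold one, 5′ to 3′ along the gene. They lie at chr2:152344028-152344057 (minus strand, Trib3), chr7:126625562-126625591 (minus strand, Nupr1), chr2:119351038-119351067 (plus strand, Chac1), chr1:191183425-191183454 (minus strand, Atf3), chr6:7693214-7693243 (minus strand, Asns), chr6:55037960-55037989 (plus strand, Gars) and chr15:11399655-11399684 (minus strand, Tars).
Trib3: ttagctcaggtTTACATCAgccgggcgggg
Nupr1: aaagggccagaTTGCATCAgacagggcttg
Chac1: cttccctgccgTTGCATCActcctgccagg
Atf3: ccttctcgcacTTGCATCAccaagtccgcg
Asns: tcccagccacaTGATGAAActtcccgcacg
Gars: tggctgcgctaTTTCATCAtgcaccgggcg
Tars: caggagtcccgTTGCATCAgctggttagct
Counted from the RefSeq start, Trib3 carries the match 15 bases into the transcript. The others hold it before that start, at positions -110, -193, -110, -23, -30 and -15 (first base, counted back from the start). The GENCODE coordinates given above for Trib3 end at 152344032 on the minus strand, so by them its match lies before the start. For Nupr1 the GENCODE coordinates run from 126623249 to 126630861 on the minus strand, so by them its match lies within the gene. Chac1, whose enzyme degrades glutathione, rose by 0.78 on the log2 scale, the stress factor gene Atf3 by 0.66, and the synthetase genes for glycine and threonine, Gars and Tars, by 0.62 and 0.40. Slc7a11, the cystine transporter gene, has a pair of matches in opposite direction in the 250 bases before its start (chr3:50443614-50443863, minus strand).
Slc7a11: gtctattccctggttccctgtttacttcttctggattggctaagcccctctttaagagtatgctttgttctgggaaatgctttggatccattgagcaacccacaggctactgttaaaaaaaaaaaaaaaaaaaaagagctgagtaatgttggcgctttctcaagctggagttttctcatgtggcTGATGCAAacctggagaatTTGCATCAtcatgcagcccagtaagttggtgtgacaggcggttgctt
Its level was 23.0, 25.2, 21.3 and 23.2 CPM without DOX and 54.0, 51.3, 46.7 and 60.3 CPM with it (1.20, SE 0.077), and the groups did not overlap. A match of letters is a description and not a binding site.

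**Figure D3:**
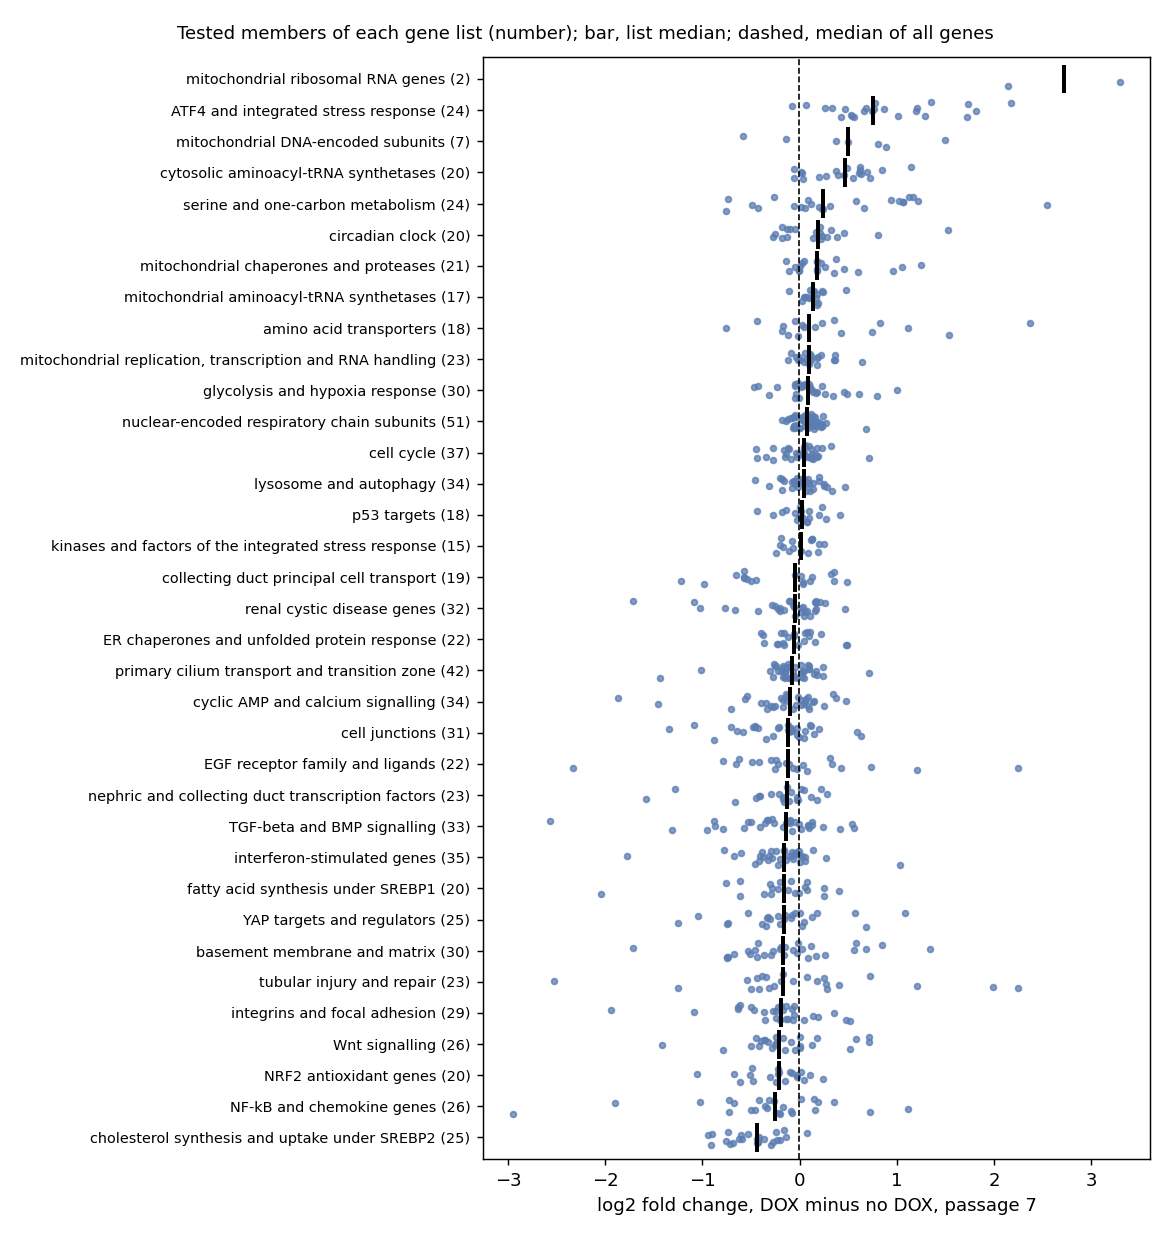
Log2 fold change with DOX at passage 7 of every tested member of 35 gene lists (1 point a gene), with a black bar at the median of each list and a dashed line at the median of all tested genes. The ATF4 list (median 0.75) and the cytosolic synthetases (0.47) lie to the right, and the SREBP2 list (-0.44) lies to the left.

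Mitochondrial chaperones and proteases, which fold and clear matrix proteins, rose more often than they fell, and the ribosomal RNAs mt-Rnr1 and mt-Rnr2 both rose. Of 21 chaperone and protease genes 13 rose and 1 fell (median 0.18, 66.7% called, against 36.9% of all tested genes). Lonp1, the main matrix protease gene (chromosome 17, 56614297 to 56626887), was at 194, 194, 188 and 168 CPM without DOX and 421, 439.9, 448 and 454 CPM with it (1.25, SE 0.047). Every library with DOX was far above every library without. The inner membrane protein gene Ghitm (1.05) and the chaperone genes Hspa9 (0.96) and Dnaja3 (0.60) rose and Spg7 (-0.14) fell, a call that was lost on leaving out replicate 1 or 3 without DOX or 2 or 4 with it (adjusted p from 0.074 to 0.16). The 12S ribosomal RNA gene mt-Rnr1 (chromosome M, 70 to 1024) was at 127, 142, 204 and 212 CPM without DOX and 1059.5, 953, 2547 and 2763 CPM with it, and mt-Rnr2, for the 16S RNA, at 595, 612, 1083 and 1086 and 2472, 2387, 5091 and 5466 CPM. For both, replicates 3 and 4 were higher than replicates 1 and 2 in each group, and no library with DOX overlapped one without. The log2 fold changes were 3.30 (SE 0.19) and 2.15 (SE 0.052). The libraries were selected for poly(A) RNA, so an altered share of polyadenylated ribosomal RNA and an altered amount cannot be told apart.

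Of 13 protein genes of the mitochondrial genome 7 were tested, of which 5 rose and 1 fell. The genes mt-Nd3, mt-Nd4l, mt-Co2, mt-Co3, mt-Atp6 and mt-Atp8 did not pass the filter on low counts, and mt-Atp8 had a count of 0 in all 8 libraries. The mitochondrial shares below thus hold few or no counts from these genes. Whether their RNA was scarce or their reads went uncounted was not tested. Of complex I, mt-Nd2 (1.50), mt-Nd4 (0.88), mt-Nd6 (0.81), mt-Nd1 (0.49) and mt-Nd5 (0.38) rose, mt-Co1 (-0.58) of complex IV fell, and the complex III gene mt-Cytb (-0.14, adjusted p = 0.14) did not pass. Without the set term the calls of mt-Nd1, mt-Nd4, mt-Nd5, mt-Nd6 and mt-Co1 were lost (adjusted p from 0.074 to 0.57). As a share of all counts, mitochondrial RNA was 1.09% to 2.00% without DOX and 1.46% to 2.75% with it, a difference of means that an exact 2-sided permutation test did not separate (p = 0.314, 0.55 after adjustment over 7 measures). The set of replicates moved with this share: in replicates 1 and 2 it was 1.17% and 1.09% without DOX against 1.46% and 1.56% with it, and in replicates 3 and 4 it was 1.97% and 2.00% against 2.49% and 2.75%. Within each set both libraries with DOX were above both without. With labels exchanged only within the sets, a test added after seeing the data, the exact 2-sided p was 0.0556, the smallest that 36 arrangements allow (0.0833 after adjustment over 3 mitochondrial shares). Ribosomal and transfer RNA alone made up 0.106% ± 0.0324 of counts without DOX and 0.573% ± 0.264 with it (SD, n = 4, exact 2-sided permutation p = 0.0286, adjusted 0.10), and mitochondrial messenger RNA 1.45% ± 0.462 and 1.49% ± 0.389 (exact permutation p = 0.771, the same after adjustment). Of 51 nuclear genes of the respiratory chain 16 rose and 2 fell (median 0.076), so that 35.3% were called, near the 36.9% of all tested genes. The complex III gene Uqcrq (0.69) and the ATP synthase gene Atp5b (0.24) were among those that rose, and the complex I gene Ndufa6 (-0.18) and the complex IV gene Cox6b1 (-0.14) were those that fell. The call of Cox6b1 was lost without replicate 3 of no DOX (adjusted p = 0.054) or replicate 4 of DOX (0.057). Of 23 genes that copy, transcribe and process mitochondrial DNA and RNA, 7 rose and 0 fell (30.4% called), with Mterf4 (0.64), Ssbp1 (0.36) and Trmt10c (0.37) in front, while the packaging factor gene Tfam (0.10, adjusted p = 0.12) did not pass.

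Of 22 genes of protein folding in the ER, 10 fell and 4 rose (median -0.057, 63.6% called, against 36.9% of all tested genes). The lectin chaperone gene Calr (-0.38) and the ubiquitin ligase gene Syvn1 (-0.37) fell, while the degradation adaptor gene Sel1l (0.47) and the stress sensor gene Atf6 (0.49) rose. The main ER chaperone gene Hspa5, known as BiP, was at 666 ± 22.3 CPM without DOX and 717 ± 22.2 with it (0.10, adjusted p = 0.042, edgeR), with overlapping groups. This call was lost with a replicate block in place of the set (adjusted p = 0.084) and on leaving out replicate 1 or 4 without DOX or replicate 1, 3 or 4 with it (0.055 to 0.19), and over all 16 libraries (0.15).

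Genes of cholesterol synthesis fell. Cells make these enzymes when membrane sterol is low and the factor SREBP2 is released to the nucleus. Of 25 genes under it 24 fell and 0 rose (median -0.44), where 36.9% of all tested genes changed either way. Hmgcs1, the synthase gene at the pathway's entry (chromosome 13, 119690379 to 119708260), was at 196, 206, 173 and 170.2 CPM without DOX and 127, 127, 99.3 and 103 CPM with it (-0.71, SE 0.041, edgeR adjusted p = 1.8e-12). The groups did not overlap. The sterol sensor partner gene Insig1 (-0.91), the sterol carrier gene Stard4 (-0.68) and Srebf2 (-0.44) itself fell as well, and Ebp (0.081, adjusted p = 0.41) did not pass. Letters of the sterol regulatory element, TCACNCCAC on either strand, were found in 1 of 17 list genes with a window (5.88%), Hmgcs1, against 1.43% of tested genes and 1.24% of all windows. This share rests on 1 gene, and the list was made of genes under SREBP2. The letters were in 2 of 177 genes that fell at least 2-fold (1.13%) and in 0 of 17 fatty acid synthesis genes. The 250 bases before the start of Hmgcs1 (chr13:119690101-119690350, plus strand) are shown with the match in capitals, at position -137.
Hmgcs1: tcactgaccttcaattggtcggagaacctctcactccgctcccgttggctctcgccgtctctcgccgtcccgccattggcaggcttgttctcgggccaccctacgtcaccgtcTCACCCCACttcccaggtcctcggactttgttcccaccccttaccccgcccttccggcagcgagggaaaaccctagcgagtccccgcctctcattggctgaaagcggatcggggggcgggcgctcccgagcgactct
Of 20 fatty acid synthesis genes 11 fell and 2 rose (median -0.16, 65.0% called, against 36.9% of all tested genes). The arachidonate ligase gene Acsl4 (-0.75), the desaturase genes Fads2 (-0.61) and Scd1 (-2.04), the malic enzyme gene Me1 (-0.36) and the elongase gene Elovl6 (-0.61) fell, against Gpam (0.26) and Acss2 (0.41). Antioxidant genes under NRF2 fell in 13 of 20 cases and rose in 0 (median -0.21, 65.0% called). Gclm, the regulatory subunit gene of glutathione synthesis (chromosome 3, 122245557 to 122270732), was at 254, 247, 288 and 312 CPM without DOX and 132, 132, 125 and 139 CPM with it (-1.06, SE 0.052), with no overlap. The catalytic subunit gene Gclc (-0.61), the glutathione reductase gene Gsr (-0.48) and the exporter gene Abcc4 (-0.51) fell too. Nfe2l2 (0.018, adjusted p = 0.78), which encodes NRF2, and its targets Hmox1 (-0.030, adjusted p = 0.69) and Nqo1 (0.24, adjusted p = 0.14) did not pass.

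Genes of inherited cystic kidney disease changed in both directions, and 43.8% of them were called, where 36.9% of all tested genes were. Of 32 tested, 10 fell, Pkd2 among them, and 4 rose (median -0.049). Bicc1, an RNA-binding protein gene whose loss gives cysts in mice (chromosome 10, 70922832 to 71159700), was at 564, 504, 616 and 637 CPM without DOX and 269, 276, 279 and 268 CPM with it (-1.08, SE 0.049). No library with DOX reached the lowest one without. The fibrocystin gene Pkhd1 (-0.77) and the transcription factor gene Glis3 (-1.02) fell, while Glis2 (0.47), Muc1 (0.17) and Anks6 (0.22) rose. The call of Anks6 was lost on leaving out replicate 1 or 4 without DOX or 2 or 4 with it (adjusted p from 0.061 to 0.096). The groups of Muc1 overlapped, and its call was lost in the fit over all 16 libraries (adjusted p = 0.30). The genes that fold polycystin-1 in the ER had small values: Ganab (0.020, adjusted p = 0.73), Prkcsh (0.043, adjusted p = 0.43) and Sec63 (-0.068, adjusted p = 0.28) did not pass. Of 42 genes of cilium transport and the transition zone, 4 rose and 11 fell (median -0.081), a share called of 35.7%, near that of all tested genes. Dcdc2a, a ciliary doublecortin-domain gene, was at 63.7, 59.2, 63.7 and 74.5 CPM without DOX and 23.5, 24.0, 25.5 and 23.0 CPM with it (-1.44), and Cys1 (-1.01), the cystin gene mutated in a mouse model of cystic kidney, fell as well. The intraflagellar transport gene Ift172 (0.71) rose, and another gene of that machinery, Ift88 (0.10, adjusted p = 0.28), did not pass.

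Cyclic AMP and calcium are the second messengers most tied to polycystin loss. Of 34 tested genes 14 fell and 5 rose (median -0.10, 55.9% called, against 36.9% of all tested genes). Falls included the adenylyl cyclase genes Adcy6 (-0.27) and Adcy7 (-1.46), the protein kinase A subunit gene Prkacb (-0.40) and the calcineurin regulator gene Rcan2 (-1.86). Rises included the mitochondrial uniporter gene Mcu (0.48), the ER release channel genes Itpr2 (0.37) and Itpr3 (0.14) and the ER pump gene Atp2a2 (0.25). The calcium channel gene Trpv4 (0.015, adjusted p = 0.81) did not pass, and in the fit over all 16 libraries the call of Itpr3 was lost (adjusted p = 0.098).

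Transport genes of the collecting duct changed in both directions. Of 19 tested (of 28 listed, Aqp2 not among them), 8 fell and 4 rose (median -0.043), where 19% of all tested genes fell and 18% rose. Their summed level was 3882 to 4145 CPM without DOX and 4097 to 4360.0 with it. Kcnj16, a basolateral potassium channel gene, was at 129.6, 135, 142 and 151 CPM without DOX and 80.4, 68.6, 64.0 and 70.2 CPM with it (-0.98, SE 0.063). The groups did not overlap. Nedd4l (-0.58), whose ligase removes the sodium channel from the membrane, Hsd11b2 (-1.22), which shields the mineralocorticoid receptor from glucocorticoids, and the scramblase gene Ano6 (-0.50) fell. The sodium channel gene Scnn1a (0.35) rose. Among 23 nephric transcription factor genes 9 fell and 3 rose (median -0.13). Irx3 (-1.28), Ehf (-0.42), Pax8 (-0.41) and Pax2 (-0.29) were among those that fell, Hoxa9 (0.28) and Tfcp2l1 (0.22) rose, and Elf3 (0.042, adjusted p = 0.47) did not pass. Of 31 junction genes 13 fell and 4 rose. The cadherin genes Cdh2 (-0.71), Cdh16 (-0.43), Cdh1 (-0.21) and Cdh6 (-0.48) and the desmosome gene Dsg2 (-0.59) fell, while the splicing regulator gene Esrp1 (0.63) and the gap junction gene Gja1 (0.59) rose. The adhesion molecule gene Epcam (0.041, adjusted p = 0.49) did not pass.

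Focal adhesion genes fell more often than they rose. Of 29 tested, 19 fell and 4 rose (median -0.19, 79.3% called), where 19% of all tested genes fell and 18% rose. Tns1, a tensin gene that links integrins to actin (chromosome 1, 73910231 to 74124449), was at 594, 523, 594 and 703 CPM without DOX and 162, 160.2, 159 and 145 CPM with it (-1.94, SE 0.077). No library with DOX came near the lowest one without. Tns3 (-0.64), the vinculin gene Vcl (-0.62) and the integrin gene Itgav (-0.50) fell, while the integrin genes Itga2 (0.52) and Itgb5 (0.48) rose. Matrix genes changed in both directions: 7 of 30 rose and 14 fell. The fibulin gene Fbln2 (1.34), the laminin gene Lama3 (0.84) and the type IV collagen genes Col4a3 (0.58) and Col4a4 (0.56) rose, and tenascin Tnc (-1.71), thrombospondin Thbs1 (-0.68), fibronectin Fn1 (-0.46) and the other type IV collagen genes Col4a1 (-0.75) and Col4a2 (-0.73) fell. Of 25 YAP pathway genes 12 fell and 5 rose (68.0% called). The targets Ankrd1 and Ccn1 fell by 1.25 and 1.04 on the log2 scale, and the target F3 and the regulator Wwc1 by 0.74 and 0.74. Nt5e (1.09) and Dock5 (0.57) rose, and the target Ccn2 (0.021, adjusted p = 0.83) did not pass.

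Signalling genes of growth factors changed in both directions. Of 33 TGF-beta and BMP genes 16 fell and 4 rose (60.6% called, against 36.9% of all tested genes). The BMP target gene Id3 (-0.95), the mediator gene Smad3 (-0.41) and Fst fell, against the ligand genes Bmp7 (0.54) and Inhba (0.41). Of 26 Wnt genes 11 fell and 5 rose (61.5% called). The receptor gene Fzd4 (-0.40) and the Dickkopf family gene Dkk3 (-1.41) fell, and the ligand gene Wnt7a (0.58) and the transcription factor gene Tcf7 (0.72) rose. Over all 16 libraries the call of Fzd4 was lost (adjusted p = 0.075). Of 22 genes of the EGF receptor system 9 fell and 5 rose (63.6% called). Areg, the ligand amphiregulin (chromosome 5, 91139599 to 91148432), went from 12.9, 13.7, 19.7 and 18.1 CPM without DOX to 72.5, 70.7, 81.9 and 78.4 CPM with it (2.25, SE 0.070). The groups did not overlap. The ligand gene Ereg (1.20) rose with it, while the receptor genes Egfr (-0.66) and Erbb2 (-0.30) and the feedback gene Spry1 (-0.79) fell.

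By number, inflammatory genes fell more often than they rose. Among 26 genes of NF-kB signalling and chemokines, 12 fell and 5 rose (median -0.25), where 19% of all tested genes fell and 18% rose. The summed level of these genes was higher with DOX, at 3303 to 4159 CPM against 2915 to 3246 without it. Lcn2 alone had means of 2218 and 1335 CPM (scaled over all 16 libraries). Cxcl5 was at 7.49, 10.3, 6.18 and 7.93 CPM without DOX and 1.49, 0.703, 0.746 and 1.21 CPM with it. The adhesion gene Icam1 (-0.72), the growth factor gene Csf1 (-0.46) and the chemokine gene Ccl2 (-1.90) fell, and Lcn2 and Il34 (0.35) rose. Of 35 interferon-stimulated genes 15 fell and 1 rose (median -0.16, 45.7% called). Ifit2, whose protein binds viral RNA, was at 151, 128, 91.0 and 102 CPM without DOX and 79.7, 86.4, 57.2 and 51.4 CPM with it (-0.78, SE 0.058), and the GTPase genes Gbp3 (-0.67) and Gbp2 (-0.60) fell, while Oasl1 (1.04) rose. Isg15 (-0.16, adjusted p = 0.21) did not pass. Both levels of Ifit2 were lower in replicates 3 and 4, and within each set of replicates the libraries with DOX were below those without. Of 23 tubular injury genes 11 fell and 8 rose (82.6% called). The injury marker Havcr1, which encodes KIM-1, was at 3.53, 4.40, 4.49 and 4.52 CPM without DOX and 0.439, 0.984, 0.870 and 0.571 CPM with it (-2.52). The annexin gene Anxa8 (1.99), Lcn2, Areg and Ereg rose.

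Of 37 cell cycle genes 6 rose and 4 fell (median 0.047), and the 27.0% called lay below the 36.9% of all tested genes. The inhibitor gene Cdkn1a (-0.44) and the nucleotide reductase gene Rrm2 (-0.44) fell, Mcm2 (0.32), Ccnd1 (0.23) and Cdkn1c (0.71) rose, and Mki67 (-0.27, adjusted p = 0.13) and Top2a (-0.14, adjusted p = 0.18) did not pass. With a replicate block in place of the set, Mki67 had an adjusted p of 0.011. Of 18 p53 target genes 4 rose, Trp53inp1 (0.27) and Zmat3 (0.20) among them, and 3 fell, Cdkn1a and Btg2 (-0.27) among them. Of 30 glycolysis and hypoxia genes 13 rose and 2 fell (median 0.089), with Ndrg1 (0.79), Hif1a (0.45) and Car12 (0.34) higher and Slc2a1 (-0.23) and Pfkfb3 (-0.47) lower. Of 20 clock genes 10 rose and 3 fell (median 0.19, 65.0% called). Ciart, a repressor of the clock, was at 6.54, 8.26, 8.18 and 9.83 CPM without DOX and 20.6, 20.8, 22.8 and 29.9 CPM with it, and Nfil3 (0.81), Cry1 (0.46) and Per1 (0.21) rose too. Bhlhe41 (-0.26) and Csnk1e (-0.13) fell. Of 34 lysosome and autophagy genes 8 rose, led by Sqstm1 (0.47), Hexa (0.34), Ctsa (0.29) and Lamp1 (0.25), and 6 fell, Wipi1 (-0.32) and Ctsl (-0.18) first. The shares called of the p53 targets (38.9%) and of the lysosome and autophagy genes (41.2%) were near that of all tested genes.

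Markers of other cells differed in level. Of 14 leukocyte markers, 6 had no count in any of the 8 libraries, the macrophage integrin gene Itgam among them, and 3 were tested. Those 3 fell: Cd14 (-0.75), Cd68 (-0.94) and Csf1r (-0.72), with a summed level of 192 to 207 CPM without DOX and 113 to 127 with it. Ptprc, the leukocyte antigen CD45, had 6 to 21 counts without DOX and at most 2 with it, and was not tested. The 3 tested markers, most of their level from Cd14 (133 and 79.4 CPM), thus moved in the same direction as most called chemokine genes. Their part in that fall was not tested. Cd53, a leukocyte tetraspanin gene outside this list, went the other way, from 0.861 CPM without DOX to 5.45 with it. These means of Cd14 and Cd53 are scaled over all 16 libraries. The tested endothelial markers summed to 13.1 to 13.4 CPM without DOX and 12.6 to 13.7 with it, and those of fibroblasts to 13.8 to 19.4 and 17.1 to 23.6 CPM. Of 14 proximal tubule, 10 loop and distal tubule and 11 intercalated cell markers, 4, 3 and 1 were tested. Those tested summed to 182 to 191 CPM without DOX and 196 to 200.5 with it for the proximal tubule, and to at most 10.9 CPM in any library for the others. Most of the proximal tubule sum came from Ass1 (means of 173 and 186 CPM, scaled over all 16 libraries). The proximal tubule genes Slc34a1 and Lrp2 had at most 1 and 15 counts in any library. The 4 tested urothelial markers stood higher, at 413 to 559.7 CPM without DOX and 542 to 658 with it, most of it from the keratin gene Krt20 (421 ± 51.9 and 555 ± 41.1 CPM). Psca (-1.20) fell and Krt20 (0.40) rose. The 3 tested podocyte markers summed to 267 to 294 and 234 to 258 CPM, Synpo (-1.08) falling and Podxl (0.28) rising. In such bulk samples fewer cells of a type and less RNA per cell cannot be told apart.

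The response at passage 7 was compared with that at passage 4, which shares no library with it, in a fit over all 16 libraries with the set as a term. The difference of responses passed the test in 821 of 15316 genes (5.36%), 339 (2.21%) more positive and 482 (3.15%) more negative at passage 7. Without the set term these were 79 and 104, and without replicate 1 of passage 4 without DOX 203 genes were more positive. Pkd2 did not pass (-0.29, SE 0.090, edgeR adjusted p = 0.055). Angptl6 was at 6.89 ± 1.71 CPM without DOX and 12.4 ± 2.98 with it at passage 4, and at 4.96 ± 0.443 and 29.7 ± 5.55 at passage 7 (SD, n = 4). Its log2 responses were 0.84 and 2.58, a difference of 1.73 (SE 0.17, edgeR adjusted p = 6.3e-07). Sat1, whose enzyme acetylates polyamines for breakdown, responded by 0.41 at passage 4 and 1.13 at passage 7, the ER-shaping gene Reep6 by 0.55 and 1.29, and Htra1 by 1.10 and 1.92. The myosin gene Myo3b, at -1.59 and -0.37, and Megf6, at -1.17 and 0.049, had negative responses at passage 4 that were near 0 or much smaller at passage 7.

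Of the 6 genes with the lowest adjusted p among those with a more negative response at passage 7, 3 had a smaller positive value there and 3 had a positive value at passage 4 and a negative one at passage 7. The guidance factor gene Sema3c responded by 1.01 at passage 4 and 0.34 at passage 7, the chondroitin synthesis gene Chpf by 1.43 and 0.57, and Glis2 by 1.07 and 0.47. The interferon-induced GTPase gene Gbp2 was at 529 ± 196 CPM without DOX and 634 ± 222 with it at passage 4, and at 322 ± 136 and 208 ± 74.5 at passage 7. Replicates 1 and 2 of Gbp2 were higher than replicates 3 and 4 in both passage 7 groups, and its responses of 0.26 and -0.60 hold the set constant. Without the set term their difference had an adjusted p of 0.59. The cadherin gene Cdh6 (0.31 and -0.48) and the sialyltransferase gene St3gal1 (0.22 and -0.44) changed sign likewise. By list, 11 of 24 stress response genes, 9 of 24 serine and one-carbon genes and 9 of 20 cytosolic synthetases had a more positive response at passage 7, and none a more negative one. Among interferon-stimulated genes 11 of 35 had a more negative response and 0 a more positive one, with list medians of 0.20 at passage 4 and -0.16 at passage 7. Of 25 SREBP2 genes 5 had a more positive response, and none a more negative one.

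**Figure D4:**
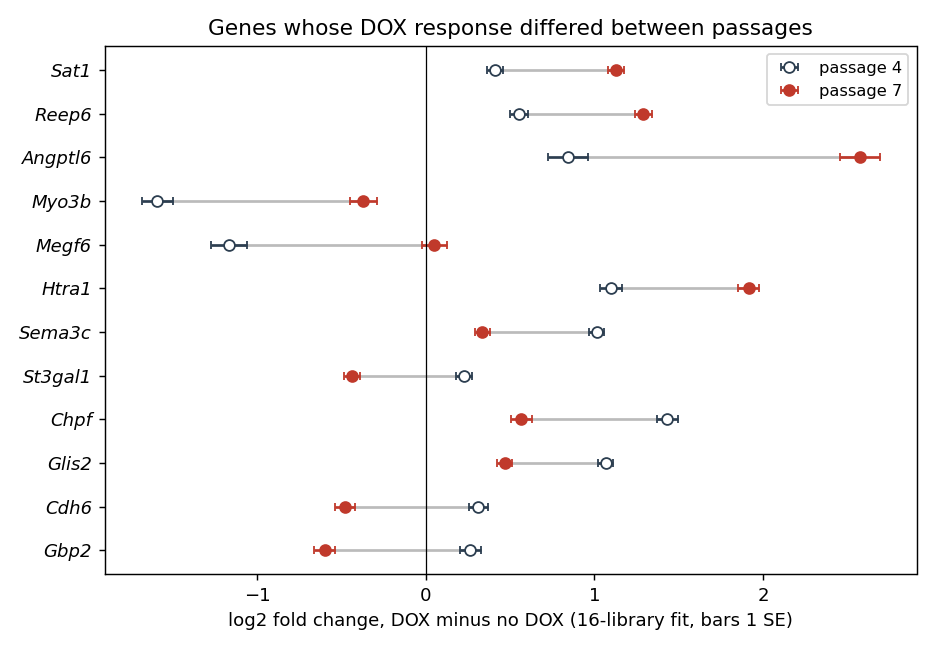
Log2 response to DOX (fitted value, bars of 1 SE) at passage 4 (open) and passage 7 (filled) of 12 genes, the 6 in each direction whose difference between passages had the lowest adjusted p. Sat1, Reep6, Angptl6 and Htra1 rose more at passage 7, and Gbp2, Cdh6 and St3gal1 lie right of 0 at passage 4 and left of it at passage 7.

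The response was also compared between the sets of replicates. Of 5478 called genes, 5474 had the same sign in replicates 1 and 2 as in replicates 3 and 4, though these are the libraries the calls were made from. The interaction of set and DOX passed the test in 9 of 14836 genes (0.0607%), and 1161 had an unadjusted p under 0.05. The ribosomal RNA gene mt-Rnr1 responded by 2.91 in replicates 1 and 2 and 3.67 in replicates 3 and 4 (difference 0.76, SE 0.093, edgeR adjusted p = 3.3e-04), and mt-Nd2 by 1.74 and 1.26. Ccn1 responded by -1.40 and -0.69, and the phosphatase gene Dusp1 by -1.04 and -0.54. Ptgs2, the inducible cyclooxygenase gene, responded by -0.69 and 0.34, the immediate early gene Nr4a1 by 0.14 and -0.77, and Tcim, which overlaps a gene on the other strand, by 0.30 and -0.38, so that all 3 differ in sign between the sets. The spindle gene Spag5 was at -0.00079 and 0.74.

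**Figure D5:**
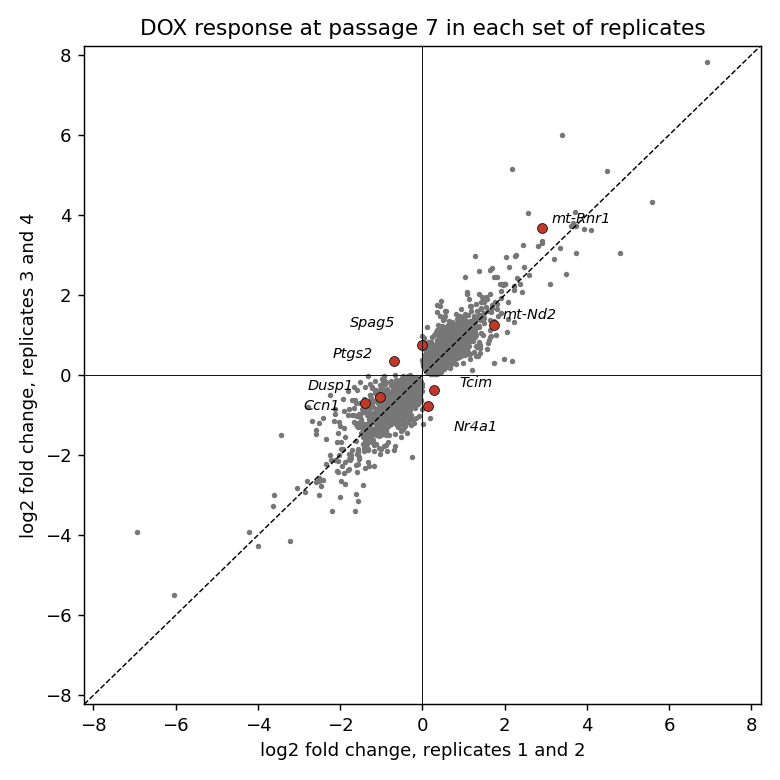
Log2 fold change with DOX at passage 7 in replicates 1 and 2 (x axis) against replicates 3 and 4 (y axis) for the 5478 genes called over all 8 libraries, with 8 named genes whose response differed between the sets in red, called or not. Most points lie near the diagonal, with 5474 of 5478 on the same side of 0 in both sets.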

How the data were processed

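Poly(A) RNA was sequenced from 4 groups of 4 libraries (2 passages, with and without DOX) on a HiSeq 4000, per the labels' protocols, which also state directional library preparation, paired reads of 75 bp and alignment with STAR 2.6.0c to GRCm38.p6. The counting tool, its annotation and its use of strand are not given in the sources used here. Raw counts for each gene and, in a separate table, TPM values were deposited by the authors. The counts were analysed, and TPM served only to compare the column headers of both tables. All 55536 gene identifiers matched GENCODE M21, which gave symbols and coordinates, and 25677 had no count in any library.

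Groups came from the labels. Genes were kept by edgeR's filterByExpr (minimum count 10) and scaled by TMM, and a robust quasi-likelihood model (edgeR 4.0.16, R 4.3.3) with terms for the set of replicates and DOX was fitted to the 8 passage 7 libraries (5 residual degrees of freedom), with Benjamini-Hochberg adjustment over 14836 genes and a threshold of 0.05. The difference between passages came from all 16 libraries, and the set-by-DOX interaction from the 8. Total counts limit low genes most. CPM values are scaled to effective library size. The set was seen in these data and cuts the biological coefficient of variation from 9.84% to 4.86%. Same-numbered libraries with and without DOX deviated together (correlations of 0.198 to 0.354 in 4 of 4 pairs), but so did libraries of other numbers in the same set (0.286 to 0.426), against -0.374 to -0.214 between sets. The values thus show the sets and no pairing by number, and the replicate block is only an alternative. In 12 pairs of libraries of 1 group the chi-square statistic over genes was 2.52 to 16.1 per degree of freedom, so no pair was counted as 1 library. Pairs within a set had 2.52 to 3.27 and pairs across sets 10.75 to 16.1. With the set as a term, the p-values rest on the smaller spread within the sets, which may be technical. In simulated data the share of false calls was somewhat above the threshold, and many of the smallest changes were missed.

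The comparison, the gene lists and the tests were chosen with earlier results of these data known. Named genes are the 12 largest changes in each direction (at least 5 CPM, no overlap of groups), the 8 largest in CPM, the 8 with the smallest adjusted p, in each list up to 4 members by adjusted p, with up to 2 that moved against most of it, the 6 in each direction for the passage difference and the 5 for the set difference, Pkd1 and Pkd2, and members that did not pass. Outside this rule, chosen after their values were seen, are Adcy6, Adcy7, Anks6, Atf3, Atf4, Atp2a2, Ccl2, Cdh1, Cdh16, Chac1, Col4a1, Col4a2, Col4a3, Col4a4, Ddit3, Erbb2, Fn1, Gars, Havcr1, Hoxb7, Hspa5, Itpr2, Itpr3, mt-Nd5, Pax2, Phgdh, Psat1, Psph, Pycr1, Scd1, Slc7a11, Srebf2 and Tars. Some genes that the rule names are not reported here. Promoter windows are from RefSeq (GRCm38.p6). Alternatives tried were no set term, a replicate block, all 16 libraries, RLE and upper-quartile scaling, DESeq2 1.42.0, other filters, each set alone and leaving out each library.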

Additional observations from a re-analysis of the deposited data

Results flagged for a closer look

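Named genes and a few library-wide measures, such as total counts and the mitochondrial share, were checked in each passage 7 group. In 12 of 532 such checks, all of them of named genes, 1 of the 4 libraries of the group stood apart from the other 3. Its gap to the nearest neighbour, as a share of the group's range, was above Dixon's 95% limit. Chance exceeds that limit in about 1 of 20 groups. The share is given after each gene. Among the libraries without DOX these were Ano6 in replicate 4 (highest, 0.843), Ctsa in replicate 1 (lowest, 0.96), Havcr1 in replicate 1 (lowest, 0.886), Iars2 in replicate 4 (highest, 0.885), Insig1 in replicate 1 (lowest, 0.922) and Scd1 in replicate 2 (highest, 0.835). Among those with DOX they were Ebp in replicate 2 (lowest, 0.939), Gsr in replicate 1 (highest, 0.868), Ift172 in replicate 2 (highest, 0.96), Mthfd2 in replicate 1 (lowest, 0.846), Podxl in replicate 2 (highest, 0.832) and Qars in replicate 2 (lowest, 0.875). No library was left out for this.

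The response to DOX differed between passages, by the interaction in the 16-library fit (edgeR, adjusted p under 0.05), in 91 of the named genes. In 55 it was more positive at passage 7, and the values below are the log2 response at passage 7 minus that at passage 4. In the amino acid stress program the differences were Trib3 0.755, Cth 0.837, Gpt2 0.716, Ddit3 0.455, Atf3 0.616 and Atf4 0.237. For serine, one-carbon and proline metabolism the differences were Aldh1l2 0.951, Pycr1 0.684, Psph 0.661, Mthfd2 0.584, Asns 0.448, Psat1 0.428 and Shmt2 0.258. For synthetases and amino acid transporters the differences were Slc7a3 1.08, Slc1a5 0.546, Gars 0.5, Eprs 0.441, Rars 0.32 and Tars 0.235. For mitochondrial proteins the differences were Chchd10 0.712, Ghitm 0.491, Lonp1 0.456, Hspa9 0.429, Uqcrq 0.38 and Dnaja3 0.346. For matrix genes the differences were Col26a1 1.64, Col4a2 1.21, Fbln2 0.965, Col4a1 0.944, Fn1 0.818, Col4a3 0.698 and Col4a4 0.411. For surface and signalling genes the differences were Cdsn 1.94, Angptl6 1.73, Myo3b 1.22, Megf6 1.22, Htra1 0.815, Gja1 0.714, Inhba 0.62, Nt5e 0.537, Wnt7a 0.487 and Esrp1 0.321. Elsewhere the values were Reep6 0.74, Sat1 0.72, Dcdc2a 0.68, Nfil3 0.667, Hmox1 0.613 and Slc2a1 0.535. The smaller ones were Ift172 0.435, Lcn2 0.337, Sel1l 0.323, Krt8 0.313, Atf6 0.274, Hif1a 0.248 and Sqstm1 0.208.

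In 36 of them the response was more negative at passage 7. For transport, junction and nephric genes the differences were Kcnj16 -0.931, Hsd11b2 -0.955, Cdh6 -0.789, Cdh16 -0.6, Pax2 -0.41, Nedd4l -0.318, Ano6 -0.248 and Pax8 -0.232. For cystic and ciliary genes the differences were Cys1 -1.2 and Glis2 -0.599. For inflammatory, interferon and injury genes the differences were Ccl2 -1.59, Cxcl5 -1.56, Havcr1 -1.03, Gbp2 -0.865, Spp1 -0.687, Gbp3 -0.57, Cd14 -0.525 and Ifit2 -0.341. For signalling and secreted genes the differences were Dkk3 -1.05, Sema3c -0.679, Fst -0.676, Id3 -0.539, Plau -0.274 and Erbb2 -0.268. Elsewhere the differences were Aoc1 -2.51, Cyp26b1 -1.89, Psca -1.49, Sept4 -0.876, Chpf -0.866, St3gal1 -0.663, Krt20 -0.66, Akap12 -0.571, Sytl2 -0.476, Zmat3 -0.363, mt-Nd4 -0.332 and Abcc4 -0.207. Many of these genes were also chosen for their change at passage 7, so the count says nothing about genes at large, of which 5.36% differed.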

How the results depend on the processing

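At passage 7 the counts of genes that rose and fell (2664 and 2814) stayed within 1.5 times under RLE and upper-quartile scaling, DESeq2, both other filters, all 16 libraries and replicates 3 and 4 alone. The exceptions were no set term (1575 and 1666), replicates 1 and 2 only (1435 and 1476) and a change of at least 2-fold (204 and 263). Leaving out each library gave 2269 to 2678 rises and 2386 to 2730 falls. With the replicate block in place of the set they were 2452 and 2584. That block changed the call of Hspa5 and Mki67 among the named genes and of no other. Pkd2 stayed between -1.77 and -1.65 when each library was left out. The passage difference fell from 339 and 482 genes to 79 and 104 with no set term, and the more positive count was 523 with no low-count filter. Leaving out each library gave 203 to 414 more positive and 324 to 545 more negative genes, the lowest without replicate 1 of passage 4 without DOX. The set-by-DOX interaction gave 6 and 3 genes with edgeR and 3 and 10 with DESeq2, and the cause was not tested. Of the 8 genes named for this interaction, DESeq2 gave an adjusted p for only 3, and these kept their call. The others could not be compared.

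Among named genes, only ones that had not passed the test changed sign. In replicates 3 and 4 only, the log2 fold change was -0.107 for Ccn2, -0.0344 for Megf6, -0.0643 for Nfe2l2, 0.345 for Ptgs2, -0.00717 for Qars and 0.0353 for Top2a. In replicates 1 and 2 only, it was -0.0145 for Kars, 0.146 for Nr4a1, 0.0364 for Sec63, 0.298 for Tcim and 0.0569 for mt-Cytb. With each library left out, Ccn2 ran from -0.0137 to 0.101, Eif2ak1 from -0.0108 to 0.0340, Nfe2l2 from -0.0193 to 0.0435 and Tcim from -0.131 to 0.0453. For these the cause was not tested. Among 261 named genes the call was lost in 31 with no set term, 18 in replicates 1 and 2 only, 11 in replicates 3 and 4 only, 5 over all 16 libraries (Ears2, Fzd4, Hspa5, Itpr3 and Muc1), 3 with DESeq2 (Anks6, Ears2 and Spg7) and 1 with no low-count filter (Spg7), which also called Mki67, Nr4a1, Spag5, Top2a and mt-Cytb. With no set term the losses were Anks6, Atf3, Bhlhe41, Btg2, Cdh1, Cox6b1, Cry1, Csnk1e, Ctsl, Ears2, Gbp2, Gbp3, Gja1, Glul, Hspa5, Inhba, Itpr3, Muc1, Ndufa6, Per1, Pfkfb3, Slc2a1, Spg7, Ssbp1, Tfcp2l1, Zmat3 and 5 mitochondrial genes. Depth limits what low genes can show, such as Aqp2 at a count of 0.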
